A study of Drosophila melanogaster with 12 samples.

Results

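RNH treatment of genomic DNA from dH1-depleted S2 cells was analyzed through the 4 lists of S9.6 peaks of this condition. The lists held 442 and 839 peaks after RNH treatment and 9368 and 5526 peaks without RNH treatment, in replicates 1 and 2. These are 16175 of the 25902 peaks of the 8 S9.6 lists of the series. The RNH-treated list of each replicate was set against the RNH-untreated list of the same replicate, and peaks of the pair that shared at least 1 bp were called kept. RNH-untreated peaks with no such partner were called lost, and RNH-treated peaks with no such partner were called only after RNH. S2 is a *Drosophila* cell line of embryonic origin. Depletion was by dsRNA against dH1, 100 μg on each of days 1, 4 and 7 of an incubation of 8 days. Control cells received no dsRNA, so the control condition carries no treatment with an unrelated dsRNA. Each condition had 2 biological replicates, and in each replicate genomic DNA was treated with RNase A, sonicated to 500–1000 bp. It then received 6 U of RNH or none before the precipitation with 4 μg of S9.6 antibodies. The RNH-treated and RNH-untreated peaks of a replicate had been called against the same input library. The peak lists do not measure dH1, so its depletion could not be checked in these data.

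An R-loop forms when a transcript pairs with its DNA template and leaves the other DNA strand unpaired. S9.6 is a monoclonal antibody that recognizes DNA:RNA hybrids, and RNase H (RNH) cleaves the RNA of a hybrid, so that the treatment before immunoprecipitation is the usual control for the specificity of S9.6. Linker histone H1 binds the nucleosome and the DNA that joins it to the next, and dH1 is the somatic H1 of *Drosophila*. The dm3 build used by the authors places the sequenced heterochromatin on 2LHet, 2RHet, 3LHet, 3RHet, XHet and YHet (Het sequences). Scaffolds with no known chromosomal position are joined in U, and small or poorly assembled scaffolds in Uextra. Both of these are rich in repeated DNA.

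A peak is lost here when it was not called after RNH treatment, which means that its *p*-value did not reach the 1e-05 threshold of MACS, and the lists do not tell by how much its coverage fell. The number of reads is not in the lists, so the depth behind each of them is unknown. A read with several alignment sites had been counted at all of them, so the copies of a repeat can each carry a peak made of the same reads, and such peaks are not independent. The RNH-untreated list of replicate 1 consists of narrow peaks, with a median width of 228 bp in front of 1233 bp in replicate 2. The RNH-treated lists of both replicates have wide peaks, with medians of 1054.5 bp and 1306 bp. In addition, the RNH-treated list of replicate 2 held 375 peaks on the chromosome arms, while that of replicate 1 held 63. Values are for these reasons presented for each replicate.

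Most S9.6 peaks of dH1-depleted cells were lost after RNH treatment. Of the 9368 RNH-untreated peaks of replicate 1, 523 were kept (5.58%, 95% Wilson interval 5.14–6.07%) and 8845 were lost (94.4%). In replicate 2, 356 of 5526 peaks were kept (6.44%, 5.82–7.12%) and 5170 were lost (93.6%). The intervals cover counting error only. In control cells, kept peaks were 15.8% and 15.1% of the RNH-untreated peaks, and lost peaks were 84.2% and 84.9%. The kept share of dH1-depleted cells minus that of control cells was -9.43 percentage points, a difference larger than the spread between replicates (SD 0.608 in dH1-depleted and 0.447 in control cells, *n* = 2 each). With 2 replicates in each condition, the exact permutation test (2-sided) cannot go below the *p* = 0.33 found here. Over all sequences this difference depended on Uextra, while U and the Het sequences taken alone showed the same order (next paragraph). Without Uextra, 2.91% and 3.70% of the peaks were kept in dH1-depleted cells and 3.71% and 3.09% in control cells. This was a difference of -0.0939 points with overlapping conditions (exact permutation *p* = 0.67). In the treated lists, the peaks called only after RNH were 72 of 442 in replicate 1 (16.3%, 13.14–20.02%) and 487 of 839 in replicate 2 (58.0%, 54.7–61.3%). Kept peaks were the other 83.7% and 42.0%. In the RNH-treated lists of control cells 37.7% and 36.8% were called only after RNH and 62.3% and 63.2% were kept, which lies between both values of dH1-depleted cells. Counted as peaks, the replicates of dH1-depleted cells were therefore close in the lost share and far apart in the treated share without a partner. Counted in base pairs, 68.2% and 69.3% of the RNH-treated peaks lay outside RNH-untreated peaks in dH1-depleted replicates 1 and 2. In control cells these shares were 43.5% and 43.4%. This measure also counts the uncovered parts of kept peaks. The ratio of RNH-treated to RNH-untreated peak numbers was -4.41 and -2.72 on the log2 scale in dH1-depleted replicates 1 and 2 (mean -3.56 ± 1.19, SD, *n* = 2 pairs). The exact sign-flip test (2-sided) has a lower limit of 0.5 with 2 pairs, which was its *p*-value. In control cells the mean log2 ratio of peak numbers was -2.04 ± 0.0506. With base pairs in place of peaks, the log2 ratio was -1.999 and -2.416 in dH1-depleted replicates 1 and 2. It was -2.055 and -2.248 in control replicates 1 and 2, so the conditions overlapped on this measure. The order of the dH1-depleted replicates was also the reverse of that by peak number. Widening every narrow peak of replicate 1 to 1233 bp around its center left these classes similar, with 6.23% of the RNH-untreated peaks kept and 13.6% of the RNH-treated peaks called only after RNH.

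The kept share was highest on the unassembled sequences. On Uextra, 333 of 2837 RNH-untreated peaks were kept in dH1-depleted replicate 1 (11.7%) and 206 of 1470 in replicate 2 (14.0%), while the control replicates kept 47.6% and 44.0%. On U the kept share was 11.7% and 6.33% in dH1-depleted cells and 24.8% and 19.3% in control cells. The Het sequences kept 5.10% and 2.39% of their peaks in dH1-depleted cells and 9.22% and 7.63% in control cells. In these 3 groups of sequences both dH1-depleted values were below both control values. The chromosome arms (X, 2L, 2R, 3L, 3R and the small chromosome 4) did not show this order. Here 103 of 5478 (1.88%) and 120 of 3295 (3.64%) peaks were kept in dH1-depleted replicates, the control replicates kept 2.21% and 1.86%, and the conditions overlapped. Exact permutation tests (2-sided) gave *p* = 0.33 for Uextra, U and Het sequences, the smallest value possible, and *p* = 0.67 for the arms (0.56 and 0.91 after Benjamini-Hochberg adjustment over 15 tests by sequence group). Over all heterochromatic sequences (Het sequences, U and Uextra) the kept share was 10.8% and 10.6% in dH1-depleted replicates, against 41.3% and 38.3% in the control ones.

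**Figure D1:**
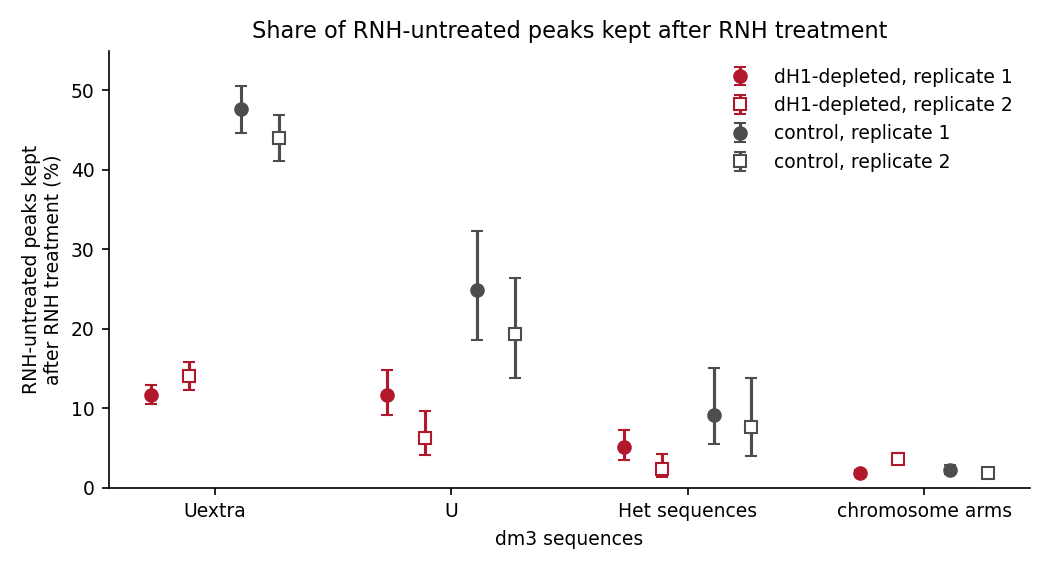
Share of RNH-untreated S9.6 peaks (%) that were overlapped by a peak of the RNH-treated list of the same replicate, on Uextra, U, the Het sequences and the chromosome arms of dm3. Points are single replicates of dH1-depleted (red) and control cells (grey), and bars are 95% Wilson intervals. The dH1-depleted points lie below the control points except on the arms, where all 4 are between 1.86% and 3.64%.

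Within the heterochromatic sequences the share varied between single sequences. YHet, which represents the Y chromosome, had few peaks, of which 5 of 8 were kept in replicate 1 (62.5%, 30.6–86.3%) and 1 of 4 in replicate 2 (25.0%, 4.56–69.9%). 3RHet had 12 of 166 peaks kept in replicate 1 (7.23%, 4.18–12.2%) and 1 of 119 in replicate 2 (0.84%, 0.15–4.61%). Among the large arms, 3L had the lowest kept share in replicate 1 (0.93%, 11 of 1185) and X the highest (2.68%, 20 of 747). In replicate 2 the range was from 2.35% on 3R (17 of 724) to 6.03% on 2R (42 of 696), and the order of the arms was not the same in both replicates. Most of the kept peaks lay on the heterochromatic sequences as grouped here, and most of those on Uextra. Peaks of the whole group were 80.3% of the kept and 39.2% of the lost peaks in replicate 1. In replicate 2 they were 66.3% of the kept and 38.6% of the lost peaks. The difference was 41.1 percentage points for replicate 1 and 27.7 for replicate 2 of dH1-depleted cells (34.4 ± 9.46, SD, *n* = 2 pairs). Its exact sign-flip *p*-value was 0.5, again the lower limit. In control cells it was 66.7 and 65.7 points. Without Uextra the difference was 30.6 points in dH1-depleted replicate 1 but 1.29 in replicate 2, and 37.7 and 37.0 in the control replicates. The Het sequences alone were not more frequent among kept peaks of dH1-depleted cells. They held 5.35% of the kept and 5.89% of the lost peaks in replicate 1. In replicate 2 they held 3.09% of the kept and 8.70% of the lost peaks.

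Kept peaks ranked high by score. MACS writes the *p*-value of a peak as a score (−log10 of it, multiplied by 10), and peaks were ranked by it within their list only, with the percentile 100 for the highest score. The median percentile was 85.1 for kept and 48.0 for lost peaks in replicate 1, and 82.3 for kept and 48.4 for lost peaks in replicate 2. The difference, of 37.1 and 33.9 percentile points, was close to that of control cells (38.4 and 41.1). It was found on each group of sequences, from 15.3 points on U to 35.7 on the Het sequences in replicate 1 and from 17.1 on U to 36.4 on the Het sequences in replicate 2. Each list was also divided into 10 bins by score. Of the bin of lowest scores 0.86% and 4.35% of the peaks were kept in dH1-depleted replicates 1 and 2, against 21.2% and 26.6% of the bin of highest scores. In control cells the bin of highest scores kept 58.5% and 62.2% of its peaks.

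This gap between the conditions was found on Uextra and not on the arms. On Uextra, 160 of 700 (22.9%, 19.9–26.1%) and 98 of 238 (41.2%, 35.1–47.5%) of the peaks of the highest bin were kept in dH1-depleted replicates 1 and 2, while the control replicates kept 88.9% and 87.3%. Chromosome arm peaks of the highest bin had similar kept shares in both conditions, with 12.0% (7.61–18.3%) and 16.1% (12.0–21.3%) in dH1-depleted cells and 16.9% and 16.0% in control cells. Across the 523 and 360 pairs of overlapping peaks of dH1-depleted cells, Spearman's rho between the RNH-treated and the RNH-untreated percentile was 0.02 and 0.26 in replicates 1 and 2, in front of 0.49 and 0.48 in control cells. These values are a description across peaks, which share a library and, on repeats, reads. Of the 10% of RNH-treated peaks with the highest scores, 42 of 45 were kept in dH1-depleted replicate 1 (93.3%) and 48 of 84 in replicate 2 (57.1%), so that 36 of the highest treated peaks of replicate 2 had no RNH-untreated partner. These kept shares were above those of the whole RNH-treated lists, of 83.7% and 42.0%.

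**Figure D2:**
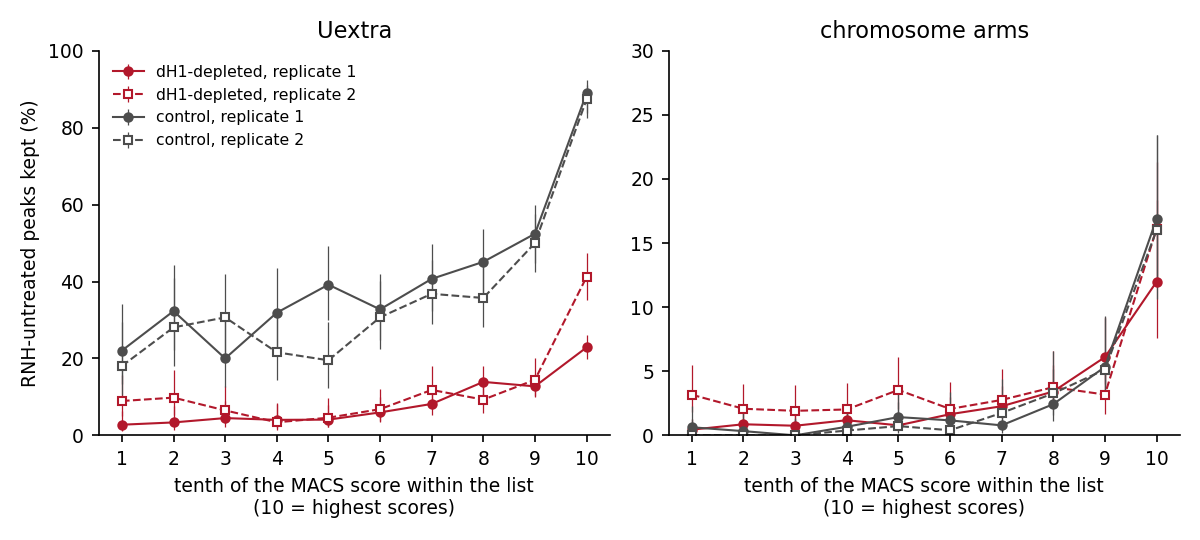
Share of RNH-untreated S9.6 peaks (%) kept after RNH treatment in 10 bins of the MACS score within the list, from the lowest (1) to the highest scores (10), on Uextra (left) and on the chromosome arms (right, where the vertical axis ends at 30%). Lines are single replicates of dH1-depleted (red) and control cells (grey), with 95% Wilson intervals. In the highest bin on Uextra the dH1-depleted lists are at 22.9% and 41.2% and the control lists at 88.9% and 87.3%, while on the arms all 4 lists are between 12.0% and 16.9%.

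On the chromosome arms, kept peaks were wide. A wide peak has more room for an overlap of 1 bp, so width and class are not independent. This limit holds for each comparison of widths between the classes. In replicate 1, whose RNH-untreated peaks are narrow, their median width was 430 bp in front of 220 bp for lost peaks. In replicate 2 it was 2365 bp for kept and 1295 bp for lost peaks. The same order was found in control cells, with 3865 bp and 3559 bp for kept and 1280.5 bp and 1257 bp for lost peaks. The share of arm peaks that were kept increased with width in replicate 2. Of 290 peaks of 500 bp to under 1000 bp 0 were kept, which allows a share of up to 1.03% (the limit for a count of 0 is taken as 3 peaks of the total). The share was 1.45% (0.98–2.13%) of 1725 peaks of up to 1500 bp, 2.89% (1.86–4.47%) of 658 peaks of up to 2000 bp, 10.6% (7.89–14.1%) of 377 peaks of up to 3000 bp and 14.7% (10.8–19.7%) of 245 peaks of 3000 bp and over. In replicate 1, where nearly all peaks were narrow, 1.15% (0.89–1.48%) of 5051 arm peaks under 500 bp and 11.2% (8.21–15.1%) of 321 peaks of 500 bp to under 1000 bp were kept. Few arm peaks of this list were wider and the share did not increase steadily among them, with 3 of 63 kept up to 1500 bp (4.76%, 1.63–13.1%), 1 of 20 up to 2000 bp, 3 of 19 up to 3000 bp and 2 of 4 at 3000 bp and over.

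On Uextra width separated kept from lost peaks less. There the medians were 319 bp for kept and 232 bp for lost peaks in replicate 1 and 1071.5 bp for kept and 1081.5 bp for lost peaks in replicate 2. Over all sequences, kept peaks were wider than lost peaks by 117 bp and 72 bp in the dH1-depleted replicates (mean 94.5 bp ± 31.8, SD, *n* = 2 pairs). The exact sign-flip test cannot resolve it (*p* = 0.5, the limit of 2 pairs). In control cells they were narrower, with a difference of -151 bp and -160.5 bp. This sign was not stable for dH1-depleted cells, since with scores of 100 and above the mean difference was -15.5 bp, and with RNH-untreated lists cut to the length of the RNH-treated ones it was -215.25 bp. The number of RNH-untreated peaks per kept site was not the same in both replicates. In replicate 1, 94 of the 370 kept RNH-treated peaks overlapped several RNH-untreated peaks, up to 8, with a mean of 1.41 per peak, and the RNH-treated peak was the wider in 100% of 523 pairs. In replicate 2 the mean was 1.02 and the RNH-treated peak was the wider in 36.7% of 360 pairs.

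**Figure D3:**
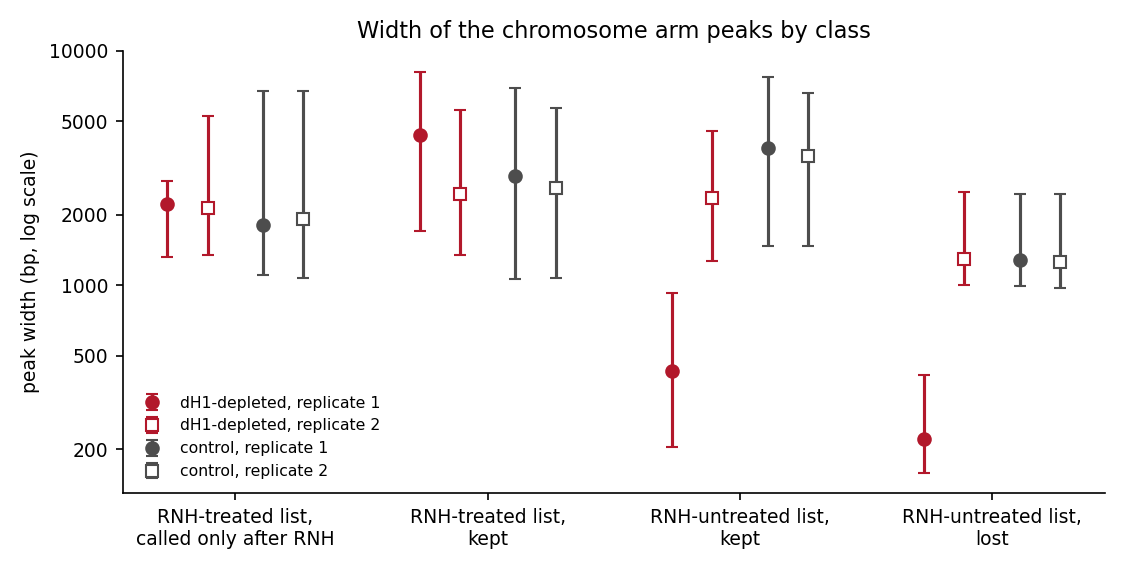
Width of the S9.6 peaks on the chromosome arms (bp, log scale) by class: peaks of the RNH-treated list called only after RNH or kept, and peaks of the RNH-untreated list kept or lost. Points are medians in single replicates of dH1-depleted (red) and control cells (grey), and bars span the 10th to the 90th percentile. Lost peaks lie below kept RNH-untreated peaks in each replicate, and the RNH-untreated peaks of dH1-depleted replicate 1 lie lowest, at 430 bp (kept) and 220 bp (lost).

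Peaks called only after RNH ranked lower than kept peaks in the treated lists. Their median percentile was 28.4, in front of 54.8 for kept peaks, in replicate 1 and 46.7, in front of 56.0, in replicate 2. Within Uextra this order did not hold for replicate 2, where the medians were 61.5 for peaks called only after RNH and 57.9 for kept peaks (27.7 and 49.8 in replicate 1). They were less often heterochromatic, with 72.2% of the peaks called only after RNH and 88.4% of the kept peaks in replicate 1, and with 46.6% of the peaks called only after RNH and 67.3% of the kept peaks in replicate 2. The mean difference was -18.4 points ± 3.23 (SD, *n* = 2 pairs; exact sign-flip *p* = 0.5, the limit). The sequences on which they lay were different in both replicates. In replicate 1, 42 of the 72 peaks were on Uextra and 20 on the arms. In replicate 2, 199 of the 487 peaks were on Uextra and 260 on the arms, and these arm peaks were 69.3% (64.5–73.8%) of all RNH-treated arm peaks of the replicate. On the arms, peaks called only after RNH were narrower than kept RNH-treated peaks, with medians of 2227.5 bp in front of 4391 bp in replicate 1 and 2143.5 bp in front of 2447 bp in replicate 2. Over all sequences they were wider, by 69.5 bp and 342.5 bp, and without Uextra the mean difference was -432 bp.

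The 260 arm peaks called only after RNH in replicate 2 were not spread evenly. Chromosome arm 2R held 97 of them (37.3%), 3R held 58, 3L 50, 2L 36 and X 19. The share on 2R was near that of the whole RNH-treated list, with 136 of its 375 arm peaks. It was 33.9% for kept RNH-treated arm peaks (39 of 115) and 20.6% for the 3175 lost arm peaks of the replicate. Within the class, 114 of the 260 peaks (43.8%, 37.9–49.9%) had another peak of the class within 20 kb, and the fullest window of 1 Mb, on 2R, held 28. In replicate 1, 0 of the 20 arm peaks of the class had such a neighbour, which allows a share of up to 15.0%, and in the control replicates this held for 0 of 44 and 0 of 31 arm peaks (up to 6.82% and 9.68%). Neighbours of their own class were also found for 28 of the 115 kept RNH-treated arm peaks of replicate 2 (24.3%, 17.4–32.9%), for 78.6% of its 3175 lost arm peaks, and for 30.4% and 33.3% of the 56 and 45 kept RNH-treated arm peaks of the control replicates. The measure of spacing was chosen after these peaks had been seen, and it also grows with the number of peaks of a class. The kept RNH-untreated arm peaks of replicate 2 were frequent on 2R as well, with 42 of 120 (35.0%). Most peaks of the class were not near misses of an RNH-untreated peak. In replicate 1, 0 of the 72 peaks (up to 4.17% allowed), and in replicate 2, 8 of the 487 peaks lay within 100 bp of an RNH-untreated peak of their replicate, and the median gap to the nearest was 3655 bp and 6891 bp.

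The classes also differed in how many of their peaks were found in the other replicate. This match used the same overlap of 1 bp as the classes, so a wide peak has more room for it as well. Copies of a repeat also share reads, and the match is therefore not independent of the class. Of the kept RNH-untreated peaks, 60.6% and 70.8% were overlapped by an RNH-untreated peak of the other replicate, in front of 34.2% and 41.9% of the lost peaks, in replicates 1 and 2. The difference was 26.4 and 28.9 points (27.7 ± 1.77, SD, *n* = 2 pairs; exact sign-flip *p* = 0.5, the limit), and in control cells it was 23.5 and 18.5 points. On the arms it was 78.6% of the kept and 30.2% of the lost peaks in replicate 1, and 45.8% of the kept and 34.7% of the lost peaks in replicate 2. Of the RNH-treated peaks, 19.4% and 18.5% of those called only after RNH were matched in the RNH-treated list of the other replicate, in front of 51.4% and 32.1% of the kept peaks. For the 260 arm peaks called only after RNH in replicate 2 this share was 0.77%, that is, 2 peaks. It was low for the other arm peaks of that list too, with 7 of the 115 kept ones (6.09%) and 9 of all 375 (2.40%). On Uextra the shares of replicate 2 were near each other, with 41.2% of peaks called only after RNH and 44.4% of kept peaks. In replicate 1 they were 23.8% and 59.6%.

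Peaks called only after RNH were also looked for in the remaining lists. An RNH-untreated peak of the other replicate of dH1-depleted cells overlapped 31 of the 72 peaks of replicate 1 (43.1%) and 185 of the 487 peaks of replicate 2 (38.0%). In replicate 2 the class split by sequence. Of its 199 Uextra peaks, 149 (74.9%) overlapped an RNH-untreated peak of replicate 1 and 166 (83.4%) an RNH-treated peak of control replicate 2. The 207 kept RNH-treated Uextra peaks of the replicate had similar shares, with 177 (85.5%) and 167 (80.7%), so these overlaps were not particular to the class. Of its 260 arm peaks these numbers were 22 (8.46%) and 6 (2.31%), and 13 (5.00%) overlapped an RNH-untreated peak of control replicate 2. The arm peaks of this class in replicate 2 were therefore largely absent from the other 6 lists. Of the 115 kept RNH-treated arm peaks of the replicate, 42 (36.5%), 23 (20%) and 61 (53.0%) overlapped a peak of the same lists, in the same order. The RNH-treated lists of dH1-depleted replicate 1 and of control replicates 1 and 2 held only 63, 100 and 76 arm peaks. This limits the overlap that 260 arm peaks can have with each of them. The 42 Uextra peaks of the class in replicate 1 had lower shares than those of replicate 2, with 16 (38.1%) overlapping an RNH-untreated peak of replicate 2 and 8 (19.0%) an RNH-treated peak of control replicate 1. For the 277 kept RNH-treated Uextra peaks of replicate 1 these numbers were 152 (54.9%) and 232 (83.8%).

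Some lost peaks of dH1-depleted cells lay where the RNH-treated lists of control cells held a peak. On Uextra, 609 of the 2504 lost peaks of replicate 1 (24.3%) and 230 of the 1264 lost peaks of replicate 2 (18.2%) overlapped an RNH-treated peak of the control replicate of the same number. On the arms these were 116 of 5375 (2.16%) and 33 of 3175 (1.04%). Kept RNH-untreated peaks did so more often, with 85.0% and 80.1% on Uextra and 38.8% and 20.8% on the arms. Control RNH-untreated peaks overlapped 32.3% and 47.4% of all lost peaks and 63.1% and 75.3% of all kept peaks of replicates 1 and 2.

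**Figure D4:**
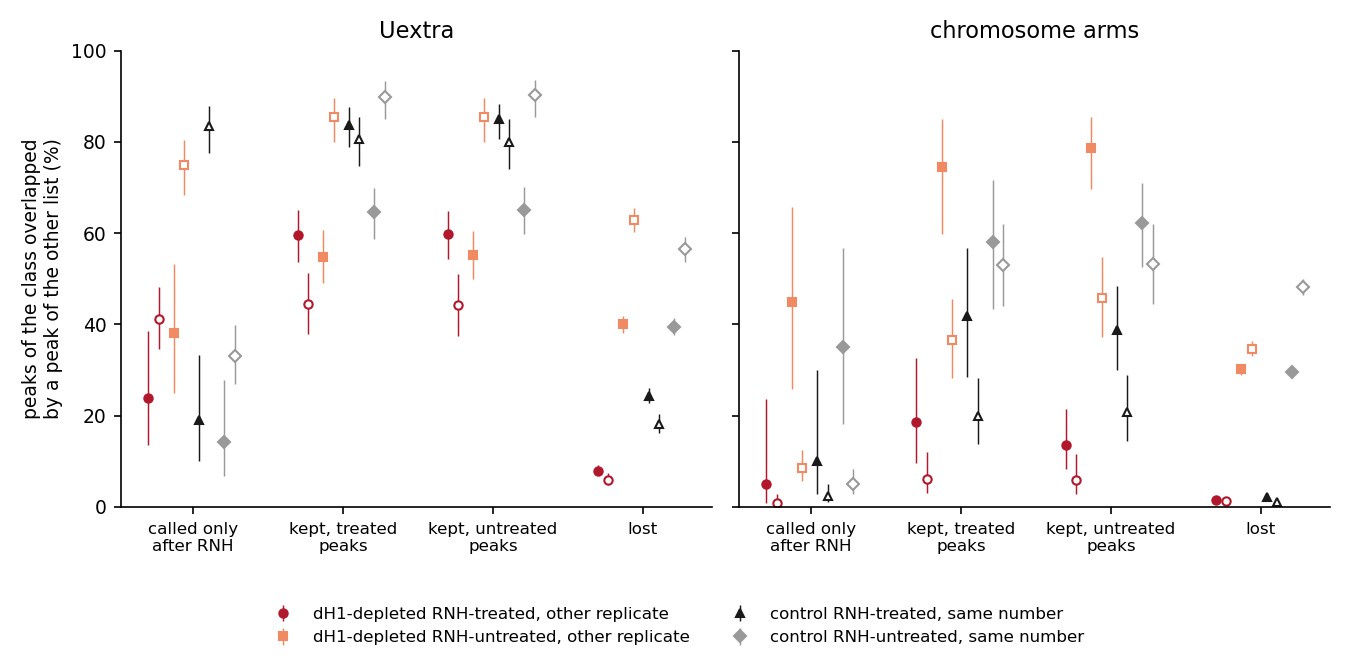
Share of the peaks of each class of dH1-depleted cells (%) that were overlapped by a peak of 4 other lists, on Uextra (left) and on the chromosome arms (right). The classes are peaks called only after RNH, kept RNH-treated peaks, kept RNH-untreated peaks and lost peaks. Filled symbols are replicate 1, open symbols replicate 2, and bars are 95% Wilson intervals. On the arms, the peaks called only after RNH in replicate 2 are at 8.46% or below for each list. On Uextra 83.4% of them overlap a peak of the RNH-treated control list, near the 80.7% of kept RNH-treated peaks.

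To combine the replicates, the peaks of the 4 lists were merged into 11794 regions, and each region was described by the lists that had a peak in it. Of the 2414 regions called in both RNH-untreated lists, 105 were called in both RNH-treated lists as well and 2046 in neither. The remaining ones had a peak in a single RNH-treated list, in replicate 1 (117 regions) or in replicate 2 (146 regions). Only 7 regions were called in both RNH-treated lists and in no RNH-untreated list, while 295 were called in the RNH-treated list of replicate 2 alone and 34 in that of replicate 1 alone. Regions with a peak in a single RNH-untreated list and in no RNH-treated list were the most frequent, with 5692 for replicate 1 and 2983 for replicate 2. With the narrow peaks widened, 114 regions were kept in both replicates, 2075 were lost in both and 7 were called only after RNH in both.

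Regions kept in both replicates were nearly all on heterochromatic sequences, mostly on Uextra. Of the 105, 87 were on Uextra (82.9%, 74.5–88.9%), 7 on U, 4 on the Het sequences and 7 on the arms. The 2046 regions lost in both replicates were on the arms in 1068 cases (52.2%), on Uextra in 731 (35.7%), on U in 132 and on the Het sequences in 115. The 7 arm regions kept in both replicates had a median width of 4064 bp, and the 1068 arm regions lost in both had 1511 bp. A control RNH-treated peak was present in 102 of the 105 kept regions (97.1%, 91.9–99.0%) and in 288 of the 2046 lost regions (14.1%, 12.6–15.7%). Control RNH-untreated peaks were found in 97.1% of the kept and 76.4% (74.6–78.2%) of the lost regions. A further 83 regions were called in both RNH-treated lists and in the RNH-untreated list of replicate 1 but not in that of replicate 2. Of these, 76 were on Uextra, and a control RNH-treated peak was present in all 83. Of the 202 regions called in both RNH-treated lists, 173 (85.6%, 80.1–89.8%) were on Uextra and 9 on the arms, and 195 (96.5%, 93.0–98.3%) also had a control RNH-treated peak.

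**Figure D5:**
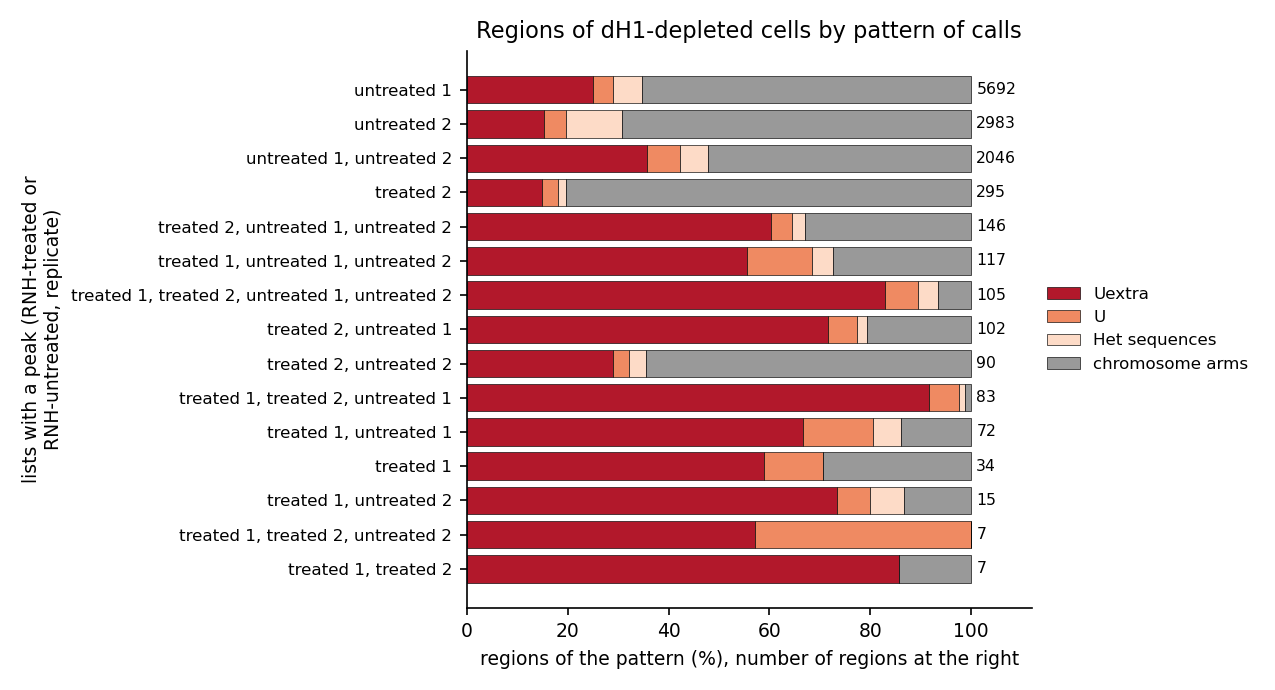
The 11794 merged regions of dH1-depleted cells by the lists that have a peak in them, ordered by number, which is given at the right of each bar. Bars show the share of the regions of a pattern (%) that lie on Uextra, U, the Het sequences and the chromosome arms, leaving out 1 region on the mitochondrial genome. Regions with both RNH-treated lists are between 85.7% and 100% heterochromatic, and the regions of the RNH-treated list of replicate 2 alone are the least, at 19.7%.

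Single regions show the classes at their highest ranks. Regions were ordered by their percentile in the replicate where it was lower, taken from the RNH-treated lists for regions kept or called only after RNH and from the RNH-untreated lists for lost regions, and positions are those of dm3. The kept regions that ranked highest in the RNH-treated lists were on X, at chrX:2683613-2687676, chrX:2689660-2692699 and chrX:5791804-5795393. In all 3 the RNH-treated score reached 3100 or above in both replicates. Without RNH treatment, the score of chrX:2683613-2687676 was 426.11 in replicate 1 and 3100 in replicate 2. For chrX:5791804-5795393 it was 94.73 in replicate 1, at percentile 61.7, and 3050.13 in replicate 2, so that this region ranked high in 3 of the 4 lists. Each of the 3 regions also had peaks in the 4 control lists, where the RNH-treated peaks scored 3100. The next in rank were on 2RHet and on Uextra (chrUextra:5223574-5224911), with RNH-treated scores of 3041.43 and 3042.51 in replicates 1 and 2 for the Uextra region, and 568.94 and 1701.0 without RNH treatment.

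Of the 5 regions of highest rank that were lost in both replicates, 4 were on Uextra. The region chrUextra:28443875-28445027 had RNH-untreated scores of 1731.82 in dH1-depleted replicate 1 and 958.74 in replicate 2. No peak was called there after RNH treatment in either replicate, while control cells had RNH-treated peaks with scores of 584.01 and 542.72. The same was true of the other 3 Uextra regions, of which chrUextra:28060636-28061689 had RNH-untreated scores of 2583.69 and 888.91 in dH1-depleted cells and RNH-treated scores of 278.59 and 378.42 in control cells. Scores of different lists are not on a common scale, and what holds between the conditions is that a peak was called or not. On the arms, the lost regions of highest rank were on X and 2R and were between 7667 bp and 7846 bp wide. The region chrX:11527167-11535012 had RNH-untreated scores of 913.63 and 1025.72 in dH1-depleted replicates 1 and 2 and no RNH-treated peak in any of the 4 RNH-treated lists.

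Of the 7 regions called only after RNH in both replicates, the 5 of highest rank had percentiles between 21.3 and 88.9 in the replicate where it was lower. On chrUextra:7039267-7039859 the RNH-treated score was 375.56 and 193.18 in replicates 1 and 2, at percentiles 96.6 and 88.9 of the lists. The only arm region of this class, on 2R, had scores of 175.44 and 95.12, and control cells had RNH-treated but no RNH-untreated peaks there.

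At the top of the lists all RNH-treated peaks were kept, while the RNH-untreated peaks were in part kept and in part lost. Each list reached a score of 3100, a value shared by several peaks. It was also the highest score of every control list, and peaks at this score could not be ranked against each other. All 4 RNH-treated peaks of replicate 1 and all 4 of replicate 2 with this score or a higher one were kept. Of the RNH-untreated peaks with such a score, 2 of 8 were kept and 6 were lost in replicate 1, and 2 of 3 were kept and 1 was lost in replicate 2. The RNH-untreated peak with the highest score of replicate 1, of 548 bp on Uextra with a score of 3152.68, was lost, and the RNH-untreated list of replicate 2 had a peak with a score of 1398.15 over it. The lost peak of replicate 2 was of 7828 bp on 3L (chr3L:2062215-2070042), where the RNH-untreated peak of replicate 1 was of 264 bp and was at percentile 45.8.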

How the data were processed

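S9.6 DRIP-seq of dH1-depleted and control S2 cells (2 replicates each) was used. The authors aligned reads to dm3 with Bowtie 0.12.5 (2 seed mismatches, up to 10000 alignment sites kept), dropped duplicates by sambamba v0.5.1, and ran MACS 1.4 (*p*-value of 1e-05) on each library with the input of its replicate, not pooling replicates. The authors deposited 8 peak lists that give positions and the MACS score (−log10 of the *p*-value, multiplied by 10, at least 50). Scores are not normalized between libraries and gave only ranks within a list. Depth is not given in the lists. Coverage and DiffBind steps of the study need reads and were not repeated. No gene or sequence was assigned to a position, since the annotation used here belongs to a later build.

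Treated and untreated libraries were paired by replicate, whose cells and input they share. Classes used an overlap of 1 bp. Pairs were compared with exact sign-flip tests and conditions with exact permutation tests, Benjamini-Hochberg adjusted over 11 tests (0.55 for pairs; 0.407 for conditions, except 1 for the share and for the score percentile of peaks called only after RNH) and over 15 tests by sequence group. Regions named were those ranked highest by their score percentile in the replicate where it was lower (RNH-untreated lists for lost regions, RNH-treated lists otherwise), up to 5 for each class and up to 3 on the arms, and the highest peak of each list. The members, classes and comparisons were chosen with earlier results of these data known. Alternatives were scores of 100 and above, an overlap of 50%, no Uextra, chromosome 4 as heterochromatic, widening of the narrow list, equal list lengths, the other replicate's treated list, base pairs, the replicate block and each replicate left out. Python 3.11.15, NumPy 2.4.6, SciPy 1.17.1, pandas 2.3.3 and matplotlib 3.10.9 were used. The classes were tested on simulated lists of evenly spaced peaks, each with a single partner at most, and recovered in full in 8 of 8 lists. Narrow lists and peaks with several partners were not part of this check.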

Additional observations from a re-analysis of the deposited data

Results flagged for a closer look

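The difference in median width between kept and lost peaks went in opposite directions in both conditions. It was 117 bp and 72 bp in the replicates of dH1-depleted cells and -151 bp and -160.5 bp in those of control cells, so that the means differed by 250.25 bp. Kept peaks were wider than lost peaks in both dH1-depleted replicates and narrower in both control replicates. An exact permutation test of the difference (2-sided) gave *p* = 0.33, the smallest value that 2 replicates against 2 allow. On the chromosome arms kept peaks were the wider in all 4 replicates, by 210 bp and 1070 bp in dH1-depleted cells and by 2584.5 bp and 2302 bp in control cells. On Uextra the difference was 87 bp and -10 bp in dH1-depleted cells and -14 bp and -62 bp in control cells. Uextra held 63.7% and 57.9% of the kept peaks in dH1-depleted replicates and 82.9% and 85.6% in control replicates. The RNH-untreated peaks of dH1-depleted replicate 1 were narrow (median 228 bp). Without Uextra the difference was 190.5 bp and 897.5 bp in dH1-depleted cells and 1123.5 bp and 748.5 bp in control cells, and the directions were no longer opposite. With the narrow list widened it was 105.5 bp and 72 bp in dH1-depleted cells, against -151 bp and -160.5 bp in control cells.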

How the results depend on the processing

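Of 123 alternative values, 100 kept the direction of the result (counts also their size within 1.5 times), 15 moved and 8 changed sign. The moved values were counts and some differences with a replicate left out that kept their sign. These were -8.69 and -10.2 for the kept share and -21.4 for the share called only after RNH. Size did not enter for the other differences, so the kept-share difference of -0.0939 without Uextra is among the 100. The difference between dH1-depleted and control cells in the share called only after RNH (-0.047 points) was 0.824 with an overlap of 50% of the shorter peak, 16.2 with RNH-untreated lists cut to the length of the treated ones, 9.81 with the treated list of the other replicate and 25.3 in base pairs, and between -21.4 and 21.3 with a replicate left out. The median width of kept minus lost peaks (94.5 bp) was -15.5 bp with scores of 100 and above and -215.25 bp with cut lists. That of peaks called only after RNH minus kept peaks (206 bp) was -432 bp without Uextra. The difference in kept share (-9.43 points) kept its sign but was -0.0939 without Uextra, -5.90 in base pairs, -15.3 with scores of 100 and above and -15.7 with cut lists, and between -10.2 and -8.69 with a replicate left out. The heterochromatic share of kept minus lost peaks (34.4 points) was 15.9 without Uextra and 15.1 with cut lists, and their width difference was 544 bp without Uextra and 19 bp with the treated list of the other replicate. With that list, peaks called only after RNH minus kept peaks differed by -59.8 and 5.57 points in heterochromatic share in dH1-depleted replicates 1 and 2 and by -31.6 and 12.4 in score percentile, so that replicate 2 changed sign.

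Regions lost in both replicates (2046) were 902 with scores of 100 and above and 1315 without Uextra, kept regions (105) were 29 and 18, and regions called only after RNH (7) were 4 and 1. In a single replicate these classes held 5170 to 8845, 348 to 370 and 72 to 487 regions. With the replicate block, the kept share differed by -9.43 points (exact sign-flip test, *p* = 0.5) and the share called only after RNH by -0.047 points. Without the replicate block, the log2 ratio of peak numbers was -3.56 (exact permutation test, *p* = 0.33). No test could reach a *p* of 0.05 with 2 replicates, so none of these results was called. Unknown depth, shared reads between copies of repeats and the narrow list of replicate 1 limit the counts.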
